A study of Mus musculus with 7 samples.

Results

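Endothelial identity genes are the transcripts by which the cells that line blood vessels are recognised in a whole tissue. The 10 genes described here, Pecam1, Cdh5, Tie1, Emcn, Eng, Vwf, Cldn5, Egfl7, Robo4 and Plvap, were taken by symbol from a fixed list and matched by Ensembl identifier in all 7 count files, out of 56854 identifiers that all files share. RNA came from whole shoulder joints of mice 2 weeks after the left supraspinatus tendon, a tendon of the rotator cuff, had been repaired surgically. There were 3 wild-type libraries and 4 libraries from Tnc-/- mice, which lack Tenascin C, a matrix glycoprotein of healing tendon. Every joint had been repaired and no unoperated joint is analysed here, so the values compare the genotypes after repair. Age, sex, strain and the form of the Tnc allele are not given in the sources used here. The design text counts 7 mice for the 7 libraries, which were taken as 1 mouse each.

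Endothelial cells form a single layer held together by adherens and tight junctions, and they take part in barrier function, leukocyte entry, clotting and new vessel growth. An intact tendon is poor in vessels, and vessels grow in as it heals. The cell-cell junction is represented by Pecam1 (CD31, a homophilic adhesion molecule), Cdh5 (VE-cadherin) and Cldn5 (claudin-5, a tight junction protein). Receptors and signalling surface proteins are Tie1 (an orphan receptor kinase paired with the angiopoietin receptor), Eng (endoglin, a TGF-beta co-receptor) and Robo4 (a guidance receptor that stabilises vessels). Surface glycoproteins of capillaries and veins are Emcn (endomucin, an anti-adhesive sialomucin) and Plvap (the protein of fenestral and caveolar diaphragms). Secreted products are Vwf (von Willebrand factor, the platelet adhesion glycoprotein, made also by megakaryocytes) and Egfl7 (a matrix-bound factor whose gene hosts the microRNA miR-126).

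Gene counts totalled 13464057 to 18503833 per wild-type library and 19250322 to 28191101 per Tnc-/- library. The wild-type libraries did not resemble each other. Receptor genes of smell, pheromone sensing and taste, 2069 identifiers that a joint is not expected to use, summed to 93.4, 1570 and 1119 CPM (gene counts per library, all scaled to the same total) in the 3 wild-type libraries in order, against 37.6 to 47.8 CPM in the Tnc-/- group. Wild-type libraries 2 and 3 therefore stand apart from the other 5, and values against wild-type library 1 alone are given beside the called members and other called endothelial genes. The files of the genotypes list different identifier sets (56980 and 56941), so they come from different counting runs, and a difference due to the run cannot be told apart from one due to genotype. Tnc was at 437, 292 and 327 CPM in wild type and 33.4, 38.9, 39.9 and 55.0 CPM in Tnc-/- (log2 fold change -3.08, SE 0.21; edgeR, adjusted p = 2.8e-04), so the targeted gene followed the labels in all 7 libraries. Of the labelled tissue's markers, Tnmd, a tendon gene, was at 182 to 361 CPM and Acta1, the actin of skeletal muscle, at 8953 to 16004 CPM. Scx was listed at 0 in every library, but its span lies wholly inside that of Bop1. Nearly all protein-coding genes nested in this way were at 0, so the value does not show whether Scx was expressed. Of 4 muscle genes 1, the fast myosin Myh4, was called higher (1.177, SE 0.22; edgeR, adjusted p = 0.0086), and their summed level was 16648 to 21705 CPM in wild type and 23391 to 34089 CPM in Tnc-/-. Of 4 tested tendon genes 1, Mkx, was called lower (-0.92, SE 0.28; edgeR, adjusted p = 0.0379), while Tnmd, Fmod and Thbs4 were at 0.01 to 0.17 and not called. Each list's 1 of 4 was near the 29.0% called over all genes tested. Myh4 was at 0.95 and Mkx at -0.65 against wild-type library 1 alone, both smaller in size than with all 7 libraries (edgeR). The part of tissue makeup in the members' values was not tested.

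The panel as a whole was expressed at similar levels in both genotypes, and 3 of its genes differed. After scaling by TMM, which sets libraries to a common level through the bulk of their genes, the 10 genes summed to 914, 721 and 730 CPM for wild type and 789, 899, 848 and 954 CPM for Tnc-/-, here and below in library order. The ranges overlapped. Single members whose groups did not overlap numbered 3 of 10, against 35.1% of all genes tested. All 10 passed the filter on low counts. Emcn fell, Vwf and Egfl7 rose, and 7 genes did not pass the threshold, so 3 of 10 were called (2 higher, 1 lower) at an adjusted p under 0.05 in edgeR's quasi-likelihood test with Benjamini-Hochberg adjustment over 17791 genes. Over all genes tested, 29.0% were called, 10.3% higher and 18.7% lower, so the share of called members was close to that of genes at large. The median log2 fold change (Tnc-/- relative to wild type) was 0.27 over the members and -9.0e-04 over all genes. The members' median was 0.04 with library totals, -0.02 against wild-type library 1 alone and -0.21 with the summed receptor genes as a covariate, so its sign was not stable. That covariate was lower in every Tnc-/- library than in any wild-type library, so the fit separates it poorly from genotype. In bulk tissue, fewer endothelial cells and less of a transcript per cell cannot be told apart.

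**Figure D1:**
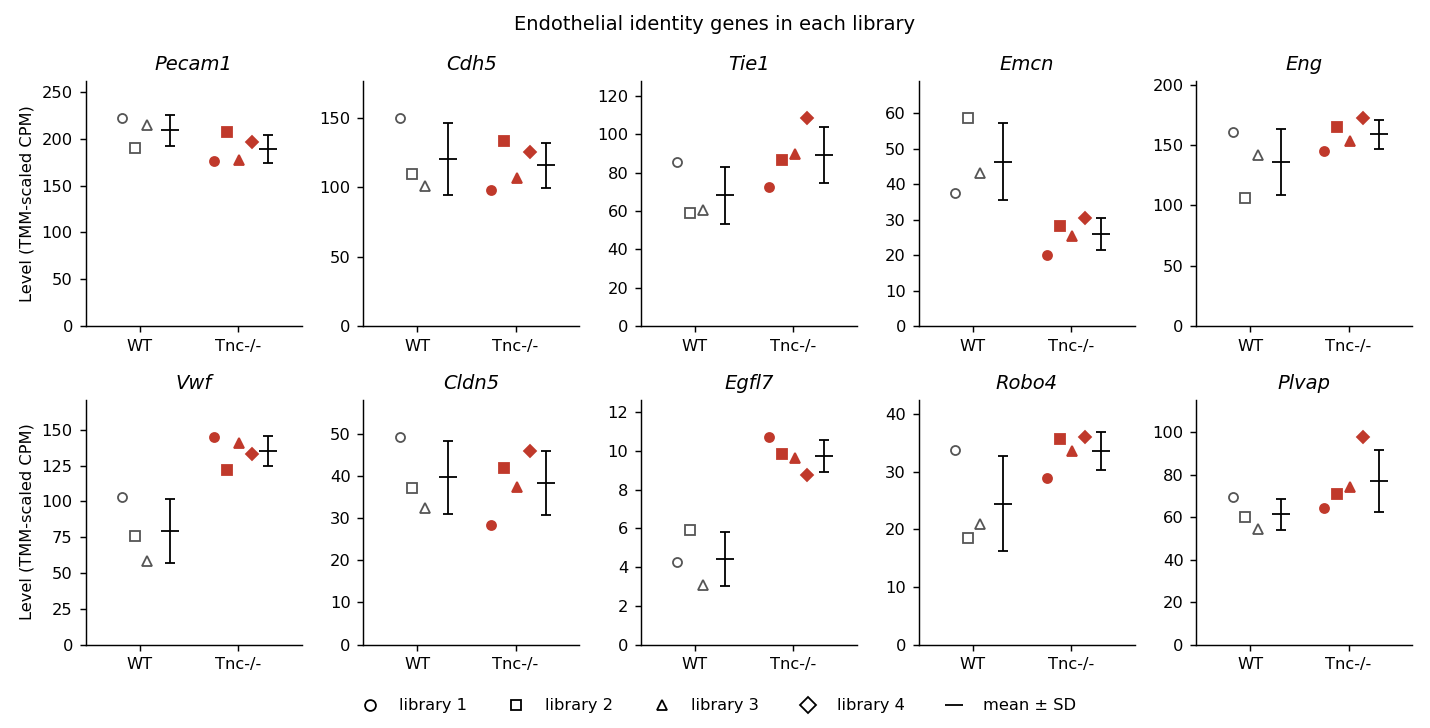
Level of each endothelial identity gene (TMM-scaled CPM, linear axes from 0) in wild-type (grey, open) and Tnc-/- (red, filled) libraries. Symbols mark library numbers within a genotype, which the labels do not pair between genotypes, and bars are mean ± SD (n = 3 and n = 4). Emcn lay below and Vwf and Egfl7 lay above the wild-type range in all 4 Tnc-/- libraries, and the genotypes overlapped in the other 7 genes.

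Emcn was the 1 member that fell. It was at 37.5, 58.6 and 43.3 CPM in wild type against 20.1, 28.2, 25.3 and 30.4 CPM in Tnc-/-. The highest Tnc-/- value was under the lowest wild-type value, a separation that 17.4% of all tested genes showed in this direction. Its mean went from 46.4 ± 10.9 CPM (SD, n = 3) to 26.0 ± 4.47 CPM (SD, n = 4), which is -0.84 on the log2 scale (SE 0.20; edgeR, adjusted p = 0.0173), or 1.78-fold lower. Emcn (chr3:137341067-137432185, GRCm38, plus strand) spans 91.1 kb, of which 5.41 kb is exonic. It was the member that rose most from wild-type library 1 to libraries 2 and 3, by 0.43 log2 units, where 8 of the other 9 members were lower in the mean of libraries 2 and 3 than in library 1. Against wild-type library 1 alone the log2 fold change was -0.53 (SE 0.22; edgeR, adjusted p = 0.157), with the spread taken from the Tnc-/- libraries and the lone library assumed to vary like them. With the receptor-gene signal as a covariate it was -0.39 (SE 0.29; adjusted p = 0.509). The direction held in all 20 alternatives tried, from -1.10 to -0.39, and the call in 13. The call ended when wild-type library 2, wild-type library 3 or Tnc-/- library 3 was left out (adjusted p in edgeR 0.0519 to 0.0588).

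The stretch before the Emcn transcription start, 250 to 31 bases upstream, is shown because Emcn is a called member with 1 start in RefSeq and no gene overlapping it. Capitals mark the letters AGGAAG or CGGAAG on either strand, the core bound by ETS factors, the family to which the endothelial regulators ERG and FLI1 belong.
Emcn, chr3:137340828-137341047, plus strand: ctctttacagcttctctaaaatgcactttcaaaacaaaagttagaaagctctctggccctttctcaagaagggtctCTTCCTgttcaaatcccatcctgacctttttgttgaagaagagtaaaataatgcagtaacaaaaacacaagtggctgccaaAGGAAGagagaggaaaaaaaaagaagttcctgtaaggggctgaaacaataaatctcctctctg

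Vwf was the member with the greatest rise in CPM. It was at 103, 75.9 and 58.7 CPM in wild type against 145, 122, 141 and 133 CPM in Tnc-/-. The genotypes did not overlap, as in 17.7% of all tested genes in this direction, and the wild-type value nearest to Tnc-/- came from library 1. Its mean rose from 79.2 ± 22.4 CPM (SD, n = 3) to 135 ± 10.2 CPM (SD, n = 4), which is 0.77 on the log2 scale (SE 0.19; edgeR, adjusted p = 0.0186), or 1.71-fold. Vwf (chr6:125546774-125686679, GRCm38, plus strand) has 56 separate exonic blocks across 139.9 kb. Among the 1999 tested genes that span 100 to 300 kb, 44.7% were called lower in Tnc-/- and 4.15% higher, with a median log2 fold change of -0.69, and Vwf was among the 83 called higher. The direction held in all 20 alternatives, from 0.25 to 1.10, and the call in 12. Against wild-type library 1 alone the value was 0.38 (SE 0.17; edgeR, adjusted p = 0.188), and with the receptor covariate 0.25 (SE 0.24; adjusted p = 0.614). Leaving out wild-type library 2 or 3, or library 1 or 3 of the Tnc-/- group, ended the call (edgeR, adjusted p 0.0575 to 0.0622).

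Vwf is also a product of megakaryocytes and platelets, and all 8 tested genes of those cells were also higher on average in Tnc-/-. Itga2b, the platelet integrin alpha-IIb, was at 93.6, 41.2 and 55.2 CPM in wild type and 206, 111, 170 and 166 CPM in Tnc-/-. The libraries fell in nearly the same order for both genes, with Tnc-/- library 1 highest and Tnc-/- library 2 lowest of its group. Of the 9 genes in the platelet and megakaryocyte list, 8 were tested and 6 were called, all higher, with a median log2 fold change of 1.09. Over all genes tested, 29.0% were called and 10.3% were called higher. These 6 were at 0.40 to 0.97 against wild-type library 1 alone, each smaller than with all 7 libraries (edgeR). Its summed level was 306 to 651 CPM in wild type and 691 to 1185 CPM in Tnc-/-; Ppbp, its most abundant member, was at 79.5 to 223 and 212 to 379 CPM and was not called (edgeR, adjusted p = 0.0508). Gp1bb, a subunit of the receptor complex for von Willebrand factor, was at or near 0 in every library, with at most 0.48 CPM. Gp1ba, another subunit of that complex, was at 11.9 ± 7.00 CPM in wild type and 26.5 ± 5.30 CPM in Tnc-/-. It was called higher (1.15, SE 0.36, edgeR, adjusted p = 0.0433), and its groups overlapped. Vwf per unit of Itga2b was 1.10, 1.84 and 1.06 in wild type and 0.70, 1.10, 0.83 and 0.80 in Tnc-/-. The genotypes overlapped through Tnc-/- library 2 alone, and the other Tnc-/- ratios lay below every wild-type ratio. Vwf per unit of Cdh5 was 0.69, 0.69 and 0.58 in wild type and 1.48, 0.91, 1.32 and 1.07 in Tnc-/-, with no overlap. Red cell genes were higher too, with 4 of 6 tested called, against 1 of 8 macrophage and 1 of 4 muscle genes. The part of platelet or megakaryocyte RNA in the Vwf difference was not tested.

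**Figure D2:**
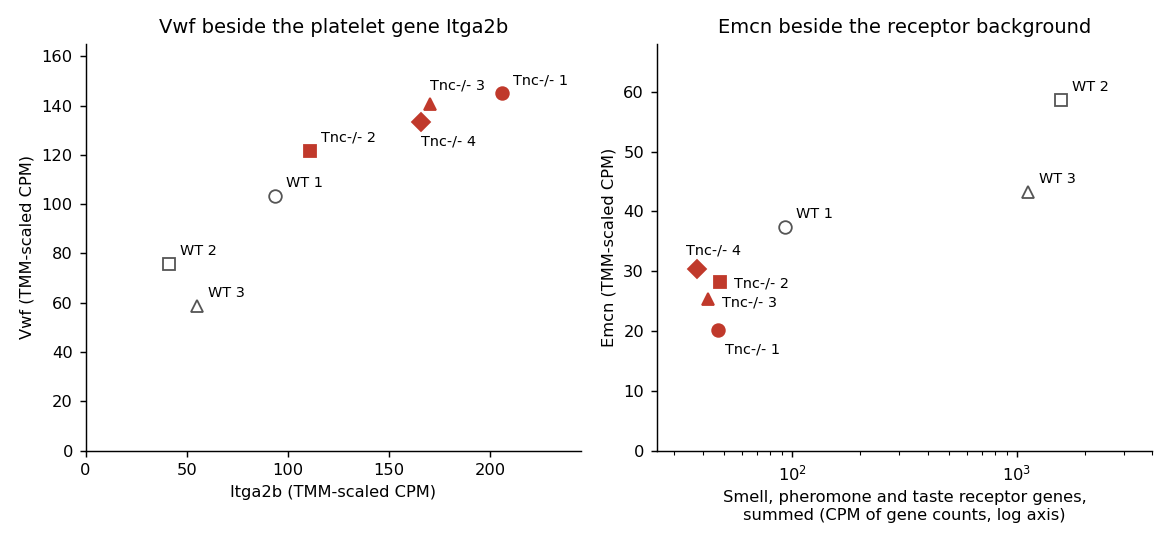
Left, Vwf against the platelet gene Itga2b in each library (TMM-scaled CPM); right, Emcn (TMM-scaled CPM) against the summed receptor genes (CPM of gene counts, log axis), with wild-type libraries open and Tnc-/- libraries filled. Vwf and Itga2b ran from low in wild-type libraries 2 and 3 to high in Tnc-/- library 1, and Emcn was highest in the wild-type libraries with 1570 and 1119 CPM of receptor genes.

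Egfl7 had the lowest CPM of the panel, on a scale not divided by length, and the fold change of greatest size. Its counts were 79, 89 and 51 in wild type and 290, 177, 172 and 167 in Tnc-/-, or 4.24, 5.91 and 3.10 CPM against 10.7, 9.86, 9.63 and 8.74 CPM. The genotypes did not overlap, and wild-type library 1 was no nearer to Tnc-/- than library 2 was. The log2 fold change was 1.14 (SE 0.34; edgeR, adjusted p = 0.0355), and 1.19 (SE 0.29; adjusted p = 0.0436) against wild-type library 1 alone, where Egfl7 was the 1 member called and 4.45% of genes were. The direction held in all 21 alternatives, from 0.90 to 1.41, and the call in 9. Leaving out wild-type library 3 or any of the 4 Tnc-/- libraries ended the call, with adjusted p (edgeR) from 0.0766 to 0.104.

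The Egfl7 count may not cover the whole gene. Egfl7 (chr2:26580014-26593120, GRCm38, plus strand) overlaps 4 listed genes, and 84.2% of its 3.58 kb of exonic bases lie inside the span of another, mostly Gm20532, which begins at position 26586639 on the same strand. How the authors' counting treated such overlaps is not stated. Of 1123 protein-coding genes whose whole span lies inside other genes' spans in GENCODE M21, 99.3% were at 0 in every wild-type library and 99.5% in every Tnc-/- library. Among 12191 protein-coding genes without any overlap these shares were 19.8 and 26.6%. Gm20532 itself held 4, 65 and 20 counts in wild type and 30, 24, 18 and 20 in Tnc-/-. The exonic bases of Egfl7 outside other genes came to 0.57 kb, upstream of the Gm20532 start, so the Egfl7 values are uncertain as a level of the whole transcript. RefSeq lists 3 starts for Egfl7, which lie 5556, 2774 and 3 bases before the start of Gm20532.

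The sequences before these 3 starts, 250 to 31 bases upstream, are shown because the exonic bases of Egfl7 outside other genes lie on this side of the gene. Capitals again mark AGGAAG or CGGAAG on either strand.
Egfl7 start 1, chr2:26580833-26581052, plus strand: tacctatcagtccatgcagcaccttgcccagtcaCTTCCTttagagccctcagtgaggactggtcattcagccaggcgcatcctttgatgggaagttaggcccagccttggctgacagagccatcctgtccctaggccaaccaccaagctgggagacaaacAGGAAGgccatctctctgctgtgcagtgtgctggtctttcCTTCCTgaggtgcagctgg
Egfl7 start 2, chr2:26583615-26583834, plus strand: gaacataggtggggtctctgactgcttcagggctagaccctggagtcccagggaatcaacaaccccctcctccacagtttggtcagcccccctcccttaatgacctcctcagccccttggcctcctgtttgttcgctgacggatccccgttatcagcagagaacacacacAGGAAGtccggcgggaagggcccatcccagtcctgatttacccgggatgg
Egfl7 start 3, chr2:26586386-26586605, plus strand: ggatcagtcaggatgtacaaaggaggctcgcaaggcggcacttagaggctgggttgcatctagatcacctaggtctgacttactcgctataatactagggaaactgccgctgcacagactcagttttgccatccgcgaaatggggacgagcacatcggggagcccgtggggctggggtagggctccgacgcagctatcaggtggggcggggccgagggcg

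The sequences come from RefSeq (GRCm38.p6), which held promoters for 6 of the 10 members, Tie1, Emcn, Eng, Cldn5, Egfl7 and Robo4, with 8 starts in all. AGGAAG was present on either strand in 6 of the 8 windows of 220 bases and in 26.1% of 32851 promoter windows of the same length. CGGAAG was present in 1 of the 8, before Tie1, and in 10.8% of all windows. AACAGGAA, the letters of a joint forkhead and ETS element, which overlap the first motif in part, stood in 2 of the 8 (Emcn and Egfl7 start 1) and in 1.83% of all.

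AGATAA, read by erythroid and endothelial zinc-finger factors, was in none of the 8 and in 9.04% of all. The windows before Cldn5, which was not called, and before start 3 of Egfl7, which was called, held none of the 4 motifs. Those before Tie1, Eng and Robo4, which were not called, each held AGGAAG. The Cldn5 window is shown:
Cldn5, chr16:18776597-18776816, plus strand: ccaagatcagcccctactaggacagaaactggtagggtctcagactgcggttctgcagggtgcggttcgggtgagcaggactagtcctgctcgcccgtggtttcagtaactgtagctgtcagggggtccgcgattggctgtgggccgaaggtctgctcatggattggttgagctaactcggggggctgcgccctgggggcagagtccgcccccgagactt

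The junction genes did not pass the threshold under TMM, and their values depended on the scaling and on wild-type library 1. Against that library alone Pecam1 was at -0.23, Cdh5 at -0.38 and Cldn5 at -0.37 on the log2 scale, none called (edgeR). Pecam1 was at 222, 191 and 215 CPM in wild type and 176, 207, 177 and 197 CPM in Tnc-/-. Tnc-/- libraries 1 and 3 lay below every wild-type library and libraries 2 and 4 lay within the wild-type range. The log2 fold change was -0.14 (SE 0.13, edgeR, adjusted p = 0.429), and 2 SE on either side ran from -0.40 to 0.11. Leaving out 1 library at a time gave -0.20 to -0.0084, with no call. On unscaled CPM, where Tnc-/- was at 164 to 190 and wild type at 213 to 244, the groups did not overlap, and with library totals as the scaling Pecam1 was called lower at -0.39 (edgeR, adjusted p = 0.0249). Library totals moved the median of all genes to -0.24 and called 30.9% of them, with 3 members called (Vwf higher, Emcn and Pecam1 lower).

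Cdh5 was at 149.6, 109.8 and 100.7 CPM in wild type and 98.0, 133, 107 and 125 CPM in Tnc-/-. The highest value belonged to wild-type library 1 and the lowest to Tnc-/- library 1, and the groups overlapped. Its log2 fold change was -0.05 (SE 0.18; edgeR, adjusted p = 0.844), with 2 SE on either side from -0.41 to 0.30. Cldn5, a gene of a single exon and 1.42 kb, was at 49.2, 37.1 and 32.4 CPM in wild type and 28.3, 41.7, 37.3 and 46.0 CPM in Tnc-/-. It had the same extremes, and its log2 fold change was -0.05 (SE 0.21; edgeR, adjusted p = 0.880) with 2 SE from -0.46 to 0.37. For both genes the sign of the difference was not stable: it turned above 0 without wild-type library 1 (0.23 for each) and with no filter on low counts (0.02 for each), and for Cldn5 also without Tnc-/- library 1 (0.05).

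The receptors and Plvap were higher on average in Tnc-/- and did not pass the threshold. Tie1 was at 85.4, 58.8 and 60.3 CPM in wild type and 72.5, 86.5, 89.8 and 108 CPM in Tnc-/-. Of the Tnc-/- libraries, 3 exceeded all wild-type libraries and library 1 did not. The log2 fold change was 0.39 (SE 0.18; edgeR, adjusted p = 0.144), against 0.06 (SE 0.20; adjusted p = 0.890) with wild-type library 1 alone. Robo4 was at 33.8, 18.5 and 20.96 CPM and at 28.8, 35.7, 33.5 and 36.0 CPM. Wild-type library 1 lay inside the Tnc-/- range while libraries 2 and 3 lay below it, and the log2 fold change was 0.45 (SE 0.22; edgeR, adjusted p = 0.153).

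Eng was at 160, 106 and 141 CPM in wild type and 145, 164.6, 153 and 172 CPM in Tnc-/-. It overlapped between the genotypes, at 0.22 on the log2 scale (SE 0.16; edgeR, adjusted p = 0.327). Plvap was at 69.3, 59.9 and 54.5 CPM in wild type and 64.4, 70.9, 74.2 and 97.8 CPM in Tnc-/-, where library 4 stood highest and library 1 fell inside the wild-type range. The log2 fold change was 0.33 (SE 0.17; edgeR, adjusted p = 0.174). Against wild-type library 1 alone Eng and Robo4 were both at -0.02 and Plvap at 0.14.

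The number of members called moved with single libraries, from 0 to 7. Wild-type library 1 was the highest wild-type library in 8 of the 10 members, the exceptions being Emcn and Egfl7, in which library 2 was highest. Without it, 7 members were called (6 higher, 1 lower) where 64.2% of all genes were (24.3% higher, 39.9% lower), Tie1, Eng, Robo4 and Plvap joining Vwf and Egfl7 with log2 fold changes of 0.68, 0.45, 0.85 and 0.52 (edgeR, adjusted p from 6.8e-04 to 0.0209). With it as the 1 wild-type library, 1 member was called. Among the Tnc-/- libraries, library 1 was lowest in 8 of the 10 members and highest in Vwf and Egfl7, while library 4 was highest in 6. Without wild-type library 3 or Tnc-/- library 3 no member was called (edgeR), where 12.3% and 14.5% of all genes were. Nor was any with limma voom (5.47% of all genes), Bonferroni adjustment (0.124%) or the receptor covariate (2.48%), with 3, 3 and 1 members at an unadjusted p under 0.05.

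**Figure D3:**
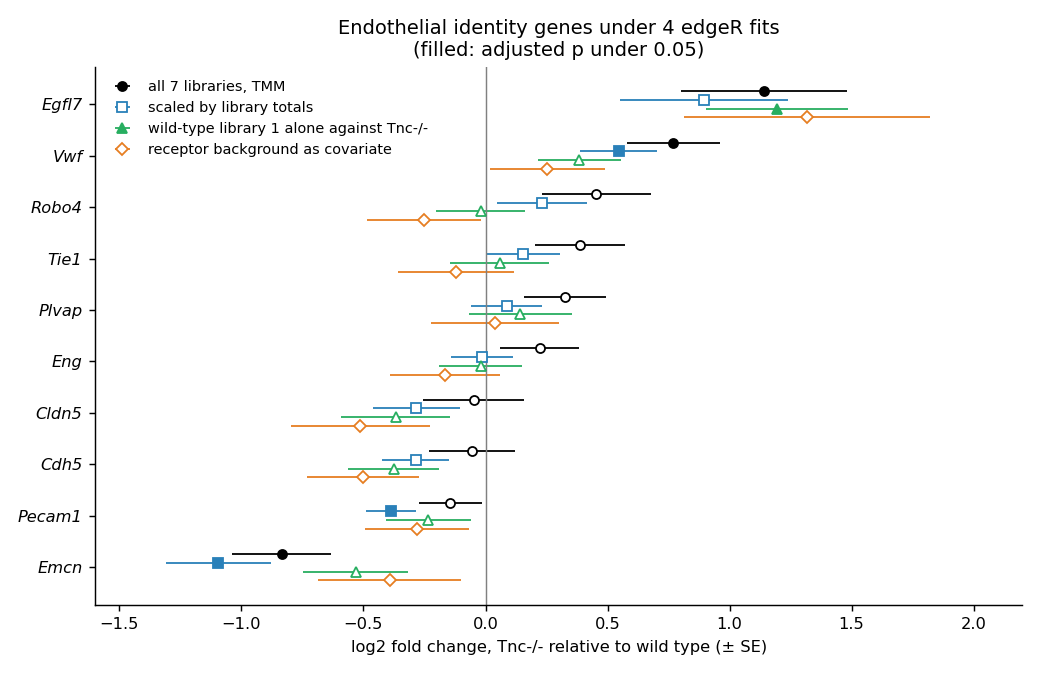
Log2 fold change (Tnc-/- relative to wild type, ± SE) of the 10 genes under 4 edgeR fits: TMM scaling of all 7 libraries, scaling by library totals, wild-type library 1 alone against Tnc-/-, and a covariate for the summed receptor genes; filled symbols have an adjusted p under 0.05. Emcn stayed below 0 and Vwf and Egfl7 stayed above 0 in all 4 fits, while Robo4, Tie1 and Eng crossed 0 in at least 1.

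The balance within the panel was examined by scaling each library to the summed counts of the 10 genes, an alternative added after the data were seen. Emcn was then lower at -1.03 (SE 0.23; edgeR, adjusted p = 0.0157) and Vwf higher at 0.65 (SE 0.16; adjusted p = 0.023), so these 2 of 10 members were called, where 26.3% of all genes were. Egfl7 was at 0.99 (SE 0.37; edgeR, adjusted p = 0.0844) and was no longer called. Pecam1 was at -0.30 (SE 0.11; edgeR, adjusted p = 0.0675), and the median of all genes moved to -0.15. As a ratio that needs no scaling, Emcn per unit of Pecam1 was 0.17, 0.31 and 0.20 in wild type and 0.11, 0.14, 0.14 and 0.15 in Tnc-/-. The highest Tnc-/- ratio lay close under that of wild-type library 1.

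Gene span, introns included, went with the direction of calls over all genes, and the members were read against it. Of the 10, 1 spans up to 10 kb, 4 span 10 to 30 kb, 4 span 30 to 100 kb and 1, Vwf, spans 100 to 300 kb. The median log2 fold change of all tested genes in these classes was 0.29, 0.15, -0.15 and -0.69. In the same classes the mean of wild-type libraries 2 and 3 differed from library 1 by a median of -0.29, -0.18, 0.15 and 0.90 log2 units. Pecam1 at -0.14 stood close to the median of its class, and Emcn at -0.84 lay below the same class median. Vwf and Egfl7 lay above the medians of their classes. In a fit and scaling restricted to genes of 30 kb or less, 5 members remained in the test and none was called (edgeR; 1 had an unadjusted p under 0.05), where 19.9% of genes were. Egfl7 was then at 0.93 (adjusted p = 0.0604).

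**Figure D4:**
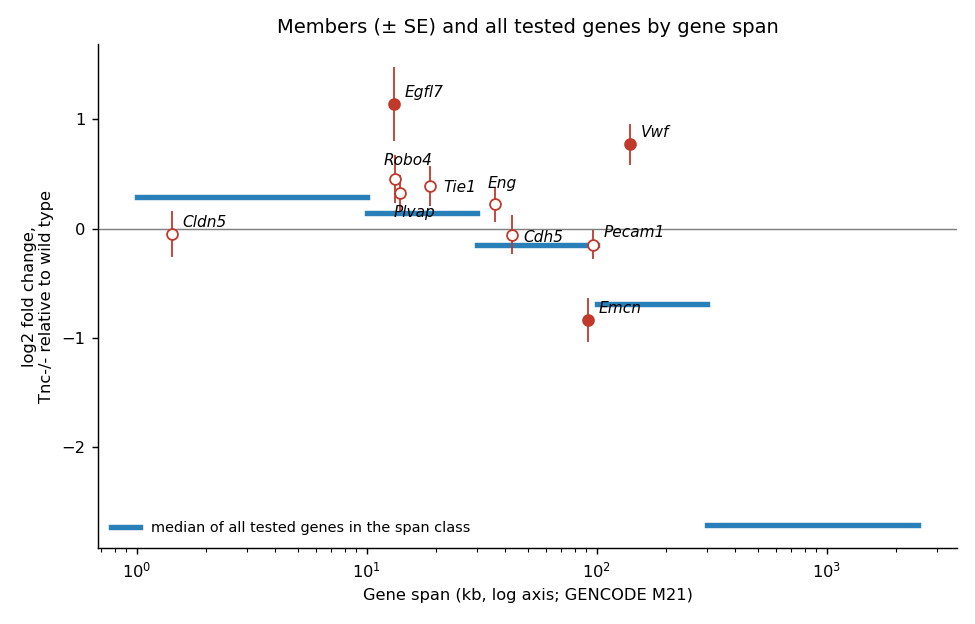
Log2 fold change (± SE) of the 10 genes against gene span (kb, log axis, GENCODE M21), with horizontal bars for the median of all tested genes in each span class, the outer classes being open; filled symbols have an edgeR adjusted p under 0.05. The class medians descended from 0.29 to -2.71, and Vwf at 0.77 stood above the -0.69 of its class.

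Levels were compared between members per kb of exonic bases that lie outside other genes, as CPM per kb. This length assumes that introns and bases inside other genes were not counted, which the sources used here do not state. Counting over whole gene spans would lose bases inside other genes but would include introns, so both assumptions may not hold together. Counted introns would raise the values of long genes such as Emcn and Vwf, so the order is a description under this length only. On this length Plvap was highest in both genotypes, at 45.5 ± 5.57 in wild type (SD, n = 3) and 57.1 ± 10.8 in Tnc-/- (SD, n = 4), above Eng in every library. In wild type Eng at 34.1, Pecam1 at 33.6, Cdh5 at 29.3 and Cldn5 at 28.0 followed, and neighbours among these 4 overlapped. Tie1 at 13.9, Emcn at 8.59, Egfl7 at 7.79, Vwf at 4.93 and Robo4 at 4.61 came after them, and from Emcn down the ranges of neighbours overlapped. The upper 6 places were held by the same genes in the same order in Tnc-/-. The means of the lower places changed order: Emcn was seventh in wild type and last of the 10 in Tnc-/-, at 4.81 ± 0.83, while Egfl7 at 17.2, Vwf at 8.41 and Robo4 at 6.32 each moved up by 1 place. In Tnc-/- the neighbours from Pecam1 down to Egfl7, with Tie1 at 18.2, overlapped, as did Robo4 and Emcn. Per kb of all exonic bases, a length tried after the data were seen, Plvap was at 30.8 in wild type and 38.7 in Tnc-/-, below Eng at 33.6 and 39.2. Egfl7 was then last in both, at 1.23 and 2.72, and Emcn moved from seventh to ninth.

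The remaining endothelial genes were taken from 5 lists that hold 53 genes with no member among them. Of these, 50 were tested and 10 were called, 6 higher and 4 lower, against 29.0% over all genes, and their median log2 fold change was 0.06. The balance turned with the scaling: library totals gave 3 higher and 8 lower (median -0.16), and scaling to the summed members 3 higher and 7 lower (median -0.07). Against wild-type library 1 alone 3 of the 50 were called, 1 higher and 2 lower, where 4.45% of all genes were. Shank3 was then at 1.23 (edgeR, adjusted p = 0.0076), Tek at -0.77 (adjusted p = 0.0314) and Aplnr, the venous apelin receptor, at -0.83 (adjusted p = 0.0400). With all libraries Aplnr was at -0.39 and not called (edgeR, adjusted p = 0.214). Among 22 tested pan-endothelial genes 4 were called. Tek, the angiopoietin receptor TIE2 and partner of Tie1, fell from 64.6 ± 6.96 to 33.5 ± 3.46 CPM (-0.95, SE 0.14; edgeR, adjusted p = 0.0067). It was at 56.9, 66.4 and 70.5 CPM in wild type and at 29.4 to 36.8 CPM in Tnc-/-, and the groups did not overlap. The call on Tek held in 18 of 20 alternatives, the exceptions being Bonferroni adjustment and the receptor covariate. Tek spans 135.7 kb and Cyyr1 131.9 kb, in the class of 100 to 300 kb where 44.7% of genes were called lower with a median of -0.69. Shank3, a scaffold protein that endothelial cells also express, rose from 60.3 ± 8.66 to 120 ± 14.4 CPM (0.99, SE 0.15; adjusted p = 0.0067, edgeR), and its call held in 19 of 20.

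Arhgef15 rose from 25.3 ± 3.12 to 40.8 ± 5.22 CPM (0.69, SE 0.16; edgeR, adjusted p = 0.0147). Cyyr1 fell from 25.7 ± 7.95 to 14.3 ± 2.88 CPM (-0.85, SE 0.26; adjusted p = 0.0387, edgeR), its groups overlapped, and the value was -0.06 with the receptor covariate. The call on Cyyr1 was kept in 1 of the 7 fits that left out a library. Cyyr1 was at -0.28 and Arhgef15 at 0.50 against wild-type library 1 alone, neither called (edgeR, adjusted p 0.536 and 0.146). Kdr, the main VEGF receptor, was at 65.6 ± 9.67 and 66.8 ± 5.49 CPM and was not called (0.03, SE 0.14; edgeR, adjusted p = 0.904). The summed level of the pan-endothelial list was 755 to 777 CPM in wild type and 699.5 to 871 CPM in Tnc-/-, which overlapped.

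In the 4 vessel-type lists 6 of 28 tested genes were called, or 21.4% against 29.0% over all genes. Of 9 arterial genes 1 was called higher and 1 lower. Unc5b, a netrin receptor, rose from 43.3 ± 7.64 to 60.5 ± 4.82 CPM (0.48, SE 0.15; edgeR, adjusted p = 0.0401), and kept its call in 1 of the 7 fits that left out a library. Gja5, connexin 40, was called lower (edgeR, adjusted p = 0.0116), but its wild-type level came from 2 libraries, with 0.97, 25.9 and 25.9 CPM in wild type and at most 0.73 CPM in Tnc-/-. Against wild-type library 1 alone it was at -1.50 (SE 1.20; edgeR, adjusted p = 0.465), and the gene spans 172.7 kb. Of 7 venous genes Vcam1, an adhesion molecule for leukocytes, was called: it rose from 72.6 ± 21.1 to 117 ± 20.5 CPM (0.68, SE 0.22; edgeR, adjusted p = 0.0444), with the call kept in 1 of the 7 fits. Unc5b was at 0.24 and Vcam1 at 0.28 against wild-type library 1 alone, neither called (edgeR, adjusted p 0.405 and 0.433).

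Of 6 tested capillary genes Rgcc, a cell cycle regulator enriched in capillaries, was called. It was at 104, 98.6 and 101 CPM in wild type and 145, 130, 143 and 141 CPM in Tnc-/- (0.47, SE 0.11; edgeR, adjusted p = 0.0155), and the call was kept in 4 of the 7 fits that left out a library and in 11 of 21 alternatives. Against wild-type library 1 alone it was at 0.43 (edgeR, adjusted p = 0.140). Aqp1, the water channel that is also present in red cells, was the most abundant gene of that list at 522 to 801 and 739 to 915 CPM and was not called (0.31, SE 0.19; adjusted p = 0.247, edgeR). Of 6 tested lymphatic genes Flt4, the VEGF-C receptor, rose from 29.0 ± 3.56 to 47.5 ± 3.91 CPM (0.71, SE 0.14; edgeR, adjusted p = 0.0099), and all 7 fits that left out a library kept the call. The summed level of the lymphatic list did not overlap between the genotypes, at 207 to 273 CPM in wild type and 186 to 202 CPM in Tnc-/-. This rested on Reln, since the sum without it, taken after the data were seen, overlapped at 162 to 203 and 170.3 to 188 CPM. Reln was called lower at 23.3, 86.3 and 69.9 CPM in wild type against 13.5 to 17.6 CPM in Tnc-/-, and spans 460 kb. Reln was at -0.61 and Flt4 at 0.56 against wild-type library 1 alone, neither called (edgeR). Lyve1 and Prox1, used as markers of lymphatic endothelium, were at 26.0 to 34.3 and 5.85 to 11.5 CPM over the 7 libraries and were not called. Which cells of the joint gave these levels was not tested. Pdpn, the most abundant of the list, was at 62.7 ± 5.39 and 49.3 ± 8.37 CPM (not called in edgeR).

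**Figure D5:**
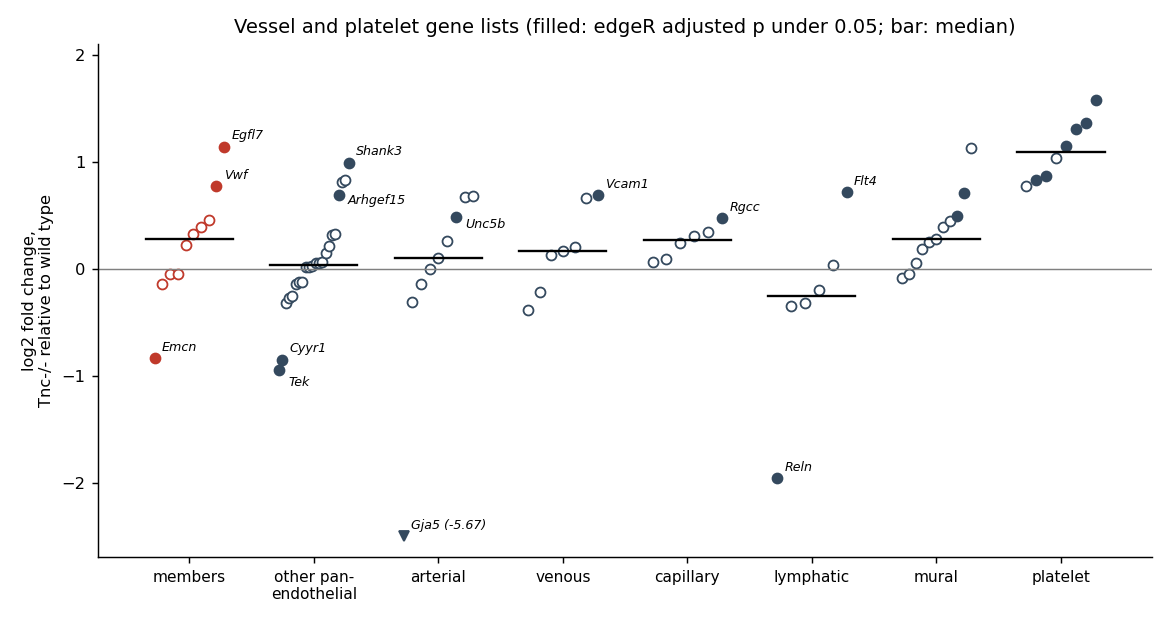
Log2 fold change (Tnc-/- relative to wild type) of each tested gene in the members' list, 5 further endothelial lists, the mural list and the platelet list; filled symbols have an edgeR adjusted p under 0.05, bars are list medians and the triangle marks Gja5 at -5.67, beyond the axis. Medians of the endothelial lists lay between -0.26 and 0.27, and that of the platelet list at 1.09.

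The genes whose pattern over the 7 libraries was most like the mean of the panel were named by a fixed measure, Pearson's r with the members' mean log2(CPM + 1), among tested genes with at least 5 CPM. They were Podxl2 (r = 0.991), Gpc1 (0.991), Ctsl (0.985), Ube2g2 (0.982) and Cd151 (0.981). These 5 were picked as the highest of all, the libraries share their scaling, and 7 libraries are few, so r is a description and no p is given. Gpc1, a heparan sulphate proteoglycan, was at 278, 204 and 173 CPM in wild type and 226, 282, 280 and 348 CPM in Tnc-/-. Like the panel's sum, it was highest in Tnc-/- library 4 and lower in wild-type libraries 2 and 3 than in the other 5 libraries.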

How the data were processed

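Libraries were made from poly(A) mRNA with a NEBNext Ultra kit, per the labels. Deposited values are raw counts per gene, 1 file per library; the submitters' processing notes name FastQC 0.11.9, HISAT2 2.2.1, HTSeq 2.0.2 and DESeq2 1.38.3 and the builds GRCm39 and mm39, while annotation and counting mode are not given in the sources used here. Rows that name no gene, present in the Tnc-/- files, held 30.1 to 32.7% of their reads and were left out. Spans, exons and coordinates come from GENCODE M21 (GRCm38), another build than the notes name, and no coordinate was converted. Unmapped count columns numbered 0.

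Counts of the 56854 shared identifiers were tested in edgeR 4.0.16 (R 4.3.3) with filterByExpr, TMM and the robust quasi-likelihood F test on genotype, Benjamini-Hochberg adjusted at 0.05, and checked on simulated data. SE was derived from the log2 fold change and the F statistic. Members, lists and tests were chosen with earlier results of these data known. Named are all members, the called genes of each endothelial list (at most 5) and each list's most abundant gene, and the 5 genes most like the panel; all further genes named were picked with their values known. Alternatives were DESeq2 1.42.0, limma 3.58.1 voom, other scalings, filters and adjustment, a receptor-gene covariate, a span limit, a replicate block and fewer libraries.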

Additional observations from a re-analysis of the deposited data

How the results depend on the processing

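The 10 members kept their direction and their side of the threshold in 162 of 205 refits; 27 lost a call, 5 gained one and 11 changed sign. Member calls (3 in edgeR) numbered 0 with limma voom and with Bonferroni adjustment (3 had an unadjusted p under 0.05 in each), 0 with the receptor covariate (1 unadjusted) and 0 among genes up to 30 kb, 1 against wild-type library 1 alone, and 0 to 7 when 1 library was left out (without wild-type library 3 the Cdh5 change was -0.16). Calls over all genes (5159) numbered 973, 22, 442, 1995 and 825 in those fits and 2229 to 14113 without 1 library; calls among the other endothelial genes (10) numbered 4, 0, 1, 2 and 3, and 4 to 23. Library totals gave 951 higher and 4541 lower genes, against 1830 and 3329, and limma voom 707 and 266. Sign changes were Tie1 -0.12, Eng -0.17 and Robo4 -0.25 with the receptor covariate, Eng -0.0203 and Robo4 -0.0189 against wild-type library 1 alone, Eng -0.0136 with library totals, Cdh5 0.0201 and Cldn5 0.0249 with no filter, Cdh5 0.23 and Cldn5 0.23 without wild-type library 1, and Cldn5 0.05 without Tnc-/- library 1. The cause of these shifts was not tested. The labels give no pairing of mice by replicate number. Same-numbered libraries' deviations correlated at 0.0075, 0.12 and -2.9e-04, and wild-type library 1 correlated best with Tnc-/- library 4. The highest value was that of the libraries numbered 2, and so few libraries cannot exclude a pairing. With the replicate number as a block, 1932 genes (10.9%), 2 members (Egfl7 not among them) and 5 other endothelial genes were called. Egfl7, at 51 to 290 counts, had the lowest counts of the members, and the part of depth in its values was not tested.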

Other observations

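Cells that surround vessels were measured with a list of 11 mural genes, all tested. Of these, 2 were called, against 29.0% over all genes, which is also the background of the macrophage and red cell counts; both were higher in Tnc-/-: Notch3, the receptor of vascular smooth muscle and pericytes, rose from 29.99 ± 4.76 to 48.9 ± 6.65 CPM (0.70, SE 0.17; edgeR, adjusted p = 0.0163), and Mcam, an adhesion molecule that endothelium also carries, rose from 54.8 ± 3.77 to 77.1 ± 13.3 CPM (0.49, SE 0.16; adjusted p = 0.0452, edgeR). With wild-type library 1 as the lone control Notch3 was at 0.98 (adjusted p = 0.0251, edgeR) and Mcam at 0.44 and not called. The most abundant mural gene, Rgs5 of pericytes, was at 262 to 426 and 286 to 389 CPM and was not called (-0.08, SE 0.20; adjusted p = 0.781, edgeR). Macrophages and monocytes can carry Pecam1; of 8 genes for them 1 was called, Ly6c2, a gene of circulating monocytes, which rose from 74.5 ± 27.4 to 154 ± 40.3 CPM (1.048, SE 0.28; edgeR, adjusted p = 0.024). Wild-type library 1 was at 106 CPM of Ly6c2 and libraries 2 and 3 at 60.7 and 56.7, and against library 1 alone the value was 0.53 (edgeR, adjusted p = 0.262). C1qb, the most abundant, was at 125 to 251 and 219 to 296 CPM. Of 6 tested red cell genes 4 were called, all higher, and Hbb-bs was at 2178 to 3896 and 6656 to 13547 CPM. None of the 4 (Hbb-bs, Hbb-bt, Hba-a1 and Slc4a1) was called with wild-type library 1 as the lone control, at 0.70 to 1.19 (edgeR, adjusted p from 0.121 to 0.290). Summed red cell genes did not overlap between the genotypes (4865 to 9390 against 13421 to 26269 CPM) and were highest in Tnc-/- library 1, which was also the lowest of the 4 Tnc-/- libraries in 8 members.

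Several genes by which cell types are recognised were listed at 0 in all 7 libraries: Ecscr of endothelium, Esm1 of tip cells, Ccl21a of lymphatics, Alas2 of red cells and Scx of tendon. In GENCODE M21 the span of each lies wholly (100%) inside that of another listed gene, Scx inside Bop1 and Alas2 inside Apex2 for example, as in the 99.3 and 99.5% of nested genes at 0 given above. Whether these genes were expressed was not tested. Among the members, the share of exonic bases inside other genes was 84.2% for Egfl7, 32.3% for Plvap, 2.57% for Cdh5, 1.51% for Eng and 0 for the other 6.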
